A study of Mus musculus with 2 samples.

Results

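Intergenic DNase I peaks far from any gene were described in mouse spleen. A peak was counted as far intergenic when it overlapped no annotated gene body and its nearest base lay over 50 kb from every transcript start of GENCODE M21, with genes of all types used (coordinates on mm10). The values come from the strict peak list of each library, which is the deposited list that covers fewer bases. In replicate 1, 790 of 48286 strict peaks (1.64%) were far intergenic. In replicate 2, 294 of 28837 (1.02%) were. The mean over the libraries was 542 ± 351 peaks (SD, n = 2).

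The spleens came from male B6CASTF1/J mice, an F1 hybrid strain, aged 14 days and with no treatment named in the labels. Replicate 1 pooled tissue of 3 males and replicate 2 used 1 male, under the same donor entry. The series has this 1 group only, so no contrast between conditions exists, and with 2 libraries an exact sign-flip permutation test cannot go below p = 0.5 (two-sided). Far peaks are therefore set beside other peaks of the same library, and a difference is described by its size in each replicate.

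DNase I cuts DNA that is not wrapped in nucleosomes, so its peaks mark promoters, enhancers and the sites of CTCF, a zinc finger protein that anchors chromatin loops together with cohesin. A footprint is a short stretch inside a peak that is cut less than its flanks, as occurs where a protein covers the DNA. Enhancers of blood cell regulators can lie far from the gene they act on, in gene-poor ground, and a nearest gene is a position and not a target. The labelled tissue was set against marker lists by the promoters (within 1 kb of a start) of listed genes with a strict peak in both libraries. This held for 16 of 18 B cell genes and 16 of 17 red cell genes, but for 8 of 18 T and natural killer cell genes, with Cd3e, Cd3g and Cd247 among those without. It held for 10 of 18 myeloid cell genes, 5 of 12 megakaryocyte genes and 4 of 18 stromal and vessel genes, with Tlx1 and Nkx2-5, factors of spleen development, and Pecam1, a vessel marker, among those without. It held for 11 of 16 blood stem and progenitor regulators, 12 of 16 broad regulators, 2 of 16 neuron genes and 1 of 12 hepatocyte genes, against 51.1% of all protein-coding genes.

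The sequences shown here are those of the 6 strongest far sites called in both libraries, on the plus strand of GRCm38 and named by the coding genes on either side, because they carry the highest signals with no gene nearby. Some 32-base words of 3 of them recur in the genome. Words reach 6 copies in the site between Cntnap5b and Cdh20 and 3 in that between Ddx18 and Dpp10, so reads there can come from another copy. Words reach 2 copies in the site between Lrig3 and Atp23, which holds a direct repeat with 44 bases in its longest exact stretch. The words of that repeat have both copies inside the site. Capitals mark bases inside a footprint of both libraries.
Lrig3 to Atp23, chr10:126511601-126511820: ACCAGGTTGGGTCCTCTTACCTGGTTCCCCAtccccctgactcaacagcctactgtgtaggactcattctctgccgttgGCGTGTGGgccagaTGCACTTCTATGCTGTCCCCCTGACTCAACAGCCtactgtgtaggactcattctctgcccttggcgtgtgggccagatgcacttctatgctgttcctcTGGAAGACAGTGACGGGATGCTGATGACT
Runx3 to Clic4, chr4:135206321-135206580: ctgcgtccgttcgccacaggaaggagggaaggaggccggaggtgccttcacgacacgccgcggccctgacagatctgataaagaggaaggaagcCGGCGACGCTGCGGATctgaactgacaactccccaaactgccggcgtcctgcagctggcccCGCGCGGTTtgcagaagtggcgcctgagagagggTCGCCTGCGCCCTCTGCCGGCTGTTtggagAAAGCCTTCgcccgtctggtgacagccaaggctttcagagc
Zxdb to Spin4, chrX:94865621-94865840: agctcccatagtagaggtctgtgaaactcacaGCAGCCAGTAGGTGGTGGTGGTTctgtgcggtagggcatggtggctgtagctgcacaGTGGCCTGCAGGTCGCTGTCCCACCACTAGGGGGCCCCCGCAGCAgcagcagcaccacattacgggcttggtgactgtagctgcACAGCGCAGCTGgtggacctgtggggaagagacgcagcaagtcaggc
Cntnap5b to Cdh20, chr1:102628161-102628320: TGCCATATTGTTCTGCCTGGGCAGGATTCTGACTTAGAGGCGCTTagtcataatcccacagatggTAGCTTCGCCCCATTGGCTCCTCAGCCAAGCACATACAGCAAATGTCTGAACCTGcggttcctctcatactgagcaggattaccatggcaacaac
Tgfbr2 to Rbms3, chr9:116384321-116384520: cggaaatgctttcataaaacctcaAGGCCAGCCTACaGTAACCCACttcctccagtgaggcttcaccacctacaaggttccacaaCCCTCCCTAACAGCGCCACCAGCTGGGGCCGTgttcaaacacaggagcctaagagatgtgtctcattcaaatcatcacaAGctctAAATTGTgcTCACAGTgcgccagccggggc
Ddx18 to Dpp10, chr1:122357121-122357300: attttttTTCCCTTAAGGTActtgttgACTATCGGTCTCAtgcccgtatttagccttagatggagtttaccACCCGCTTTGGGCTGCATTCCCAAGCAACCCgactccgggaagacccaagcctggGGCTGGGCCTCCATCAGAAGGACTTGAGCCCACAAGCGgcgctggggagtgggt

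The site between Lrig3 and Atp23 was the strongest far peak of both libraries, with a signal of 9.47 in replicate 1 and 13.0 in replicate 2. It lies 74984 bases from the nearest start, that of the processed pseudogene Gm47965. The longest stretch that recurs exactly has 44 bases, at position 32 of this sequence and again at position 109. The copies go on beyond it after a single differing base, so the site holds a direct repeat. Each copy carries the AP-1 motif TGACTCA, bound by Fos and Jun proteins. Only the second match, at positions 115 to 121, lies in footprints of both libraries. The 32-base words of the exact stretch are the same in both copies, so reads there can come from either. The footprints therefore cannot tell which of the matches is covered.

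The site between Runx3 and Clic4 had signals of 9.42 and 5.52. It lies 51885 bases from a start of Runx3, which encodes a transcription factor of cytotoxic T cells and natural killer cells. Its CTCF match on the minus strand, at positions 198 to 209, is covered whole by footprints of both libraries, whereas a second match at positions 142 to 153 is not touched by them. On the X chromosome, the site between Zxdb and Spin4 had signals of 8.63 and 5.54. Its CTCF match CCACTAGGGGGC, at positions 113 to 124, and its E-box CAGCTG, at positions 180 to 185, are both covered whole.

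The next sites show other contents. The site between Cntnap5b and Cdh20 had signals of 6.75 and 6.69 and held none of the 22 motifs searched. It lies 2375532 and 2140209 bases from the nearest coding starts on either side. The site between Tgfbr2 and Rbms3 had signals of 7.29 and 4.56 and carries an E-box covered by footprints of both libraries. The site between Ddx18 and Dpp10 had signals of 4.62 and 6.47. Next in rank came sites 72575 bases from Irf2bp2, with signals of 6.40 and 3.97, between Btg1 and Dcn, with 5.46 and 4.66, and 88720 bases from Zeb1, a zinc finger repressor, with 6.00 and 3.97.

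Far ground, meaning sequence outside gaps, gene bodies and 50 kb of any start, covers 415 Mb or 15.7% of the 2647.5 Mb of the genome without gaps. It held 1.90 far peaks per Mb in replicate 1 and 0.709 in replicate 2, while the whole genome held 18.2 and 10.9 strict peaks per Mb. Far ground was thus 9.58 and 15.4 times poorer in peaks. Peaks thinned further with distance inside the far ground. Between 50 and 100 kb from a start there were 2.76 and 1.08 peaks per Mb, between 100 and 200 kb 0.938 and 0.257, and between 200 and 500 kb 0.344 and 0.138. The farthest peak lay 269757 bases from any start in replicate 1 and 257549 bases in replicate 2, and the 0.723 Mb of ground beyond 500 kb held none. The limit of 50 kb cut through a continuous range. Within 5 kb beyond it lay 144 far peaks of replicate 1 (median signal 0.810) and within 5 kb short of it 146 nearer intergenic peaks (0.881). In replicate 2 there were 48 far peaks (1.21) and 53 nearer intergenic peaks (1.18).

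**Figure D1:**
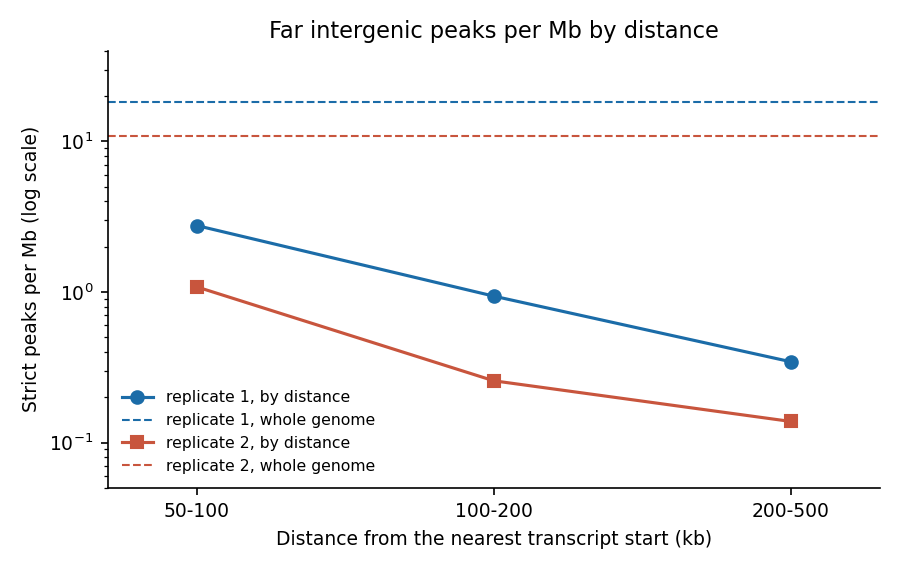
Strict peaks per Mb of far ground (log scale) by distance from the nearest transcript start in kb, with circles for replicate 1, squares for replicate 2 and a dashed line for each library's value over the whole genome. Both libraries go down with distance, from 2.76 to 0.344 and from 1.08 to 0.138 peaks per Mb, below the genome values of 18.2 and 10.9.

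The chromosomes differed in the density of far peaks. Of the autosomes, chromosome 9 had 3.30 and 1.49 per Mb of far ground and chromosome 13 had 3.67 and 0.983, and these had the highest means (2.40 ± 1.28 and 2.33 ± 1.90, SD, n = 2). The 19 far peaks of replicate 2 on chromosome 9 include those of a dense run of 7 sites described further on. Its rank without that run was not computed. The X chromosome had 0.847 and 0.454, and the Y chromosome 0.187 in each library, from 2 peaks. The animals are male, so each cell carries a single X and a single Y, and the part of copy number in these values was not tested. The gap between the libraries was uneven. Replicate 2 had 9 far peaks against 53 on chromosome 3, but 41 against 61 on chromosome 1 and 35 against 55 on chromosome 4, each of which holds 1 of the dense runs of replicate 2 described further on.

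Far peaks were weaker than other peaks. The median signal, the authors' height per peak on a scale not given in the sources used here, was 0.806 in replicate 1 against 1.51 for all other strict peaks, and 0.952 against 1.81 in replicate 2. The ratio was 0.533 and 0.527 (mean 0.530 ± 0.00446, SD, n = 2; two-sided exact permutation p = 0.5 for the difference, the smallest possible). Promoter peaks (within 1 kb of a start) had medians of 2.63 and 2.67, and intergenic peaks nearer than 50 kb 1.20 and 1.33. Far peaks were also narrower, with median widths of 166 and 152 bases against 200 and 191. In the distance classes the median signal was 0.839 and 0.960 up to 100 kb and 0.613 and 0.773 beyond 200 kb, where only 15 and 6 peaks stand.

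The share of far peaks found again in the other library was below that of peaks in general in both replicates. A strict peak of replicate 2 overlapped 29.1% of the far peaks of replicate 1 by at least 1 base, against a background of 53.1% for all strict peaks of that library. A strict peak of replicate 1 overlapped 78.2% of the far peaks of replicate 2, against 89.1%. Without 4 dense runs of weak peaks, described further on, the share in replicate 2 was 94.6% of 241. Those runs were picked for holding 7 or more sites of replicate 2 alone. Leaving them out raises the share by construction, and the 89.1% was not trimmed, so these values cannot be compared. Signal moved with the overlap. In replicate 1, far peaks found again had a median signal of 1.59 and the others 0.676, and in replicate 2 the values were 1.08 and 0.232.

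At equal signal far peaks lay close to the other distal classes and, in most bins of replicate 1, below promoter peaks. The strict peaks of each library were divided into 4 equal bins by signal, from bin 1 (weakest) to bin 4 (strongest), and 56.1% of the far peaks of replicate 1 and 60.9% of those of replicate 2 fell in bin 1. In bin 3 of replicate 1, 74.6% of 122 far peaks were found again, against 69.7% of nearer intergenic peaks, 60.7% of peaks inside genes and 81.1% of promoter peaks. In its bin 1, 11.7% of 443 far peaks were, against 10.2% and 7.08% of these distal classes and 14.2% of promoter peaks. In bin 2 it was 29.2% of 195 far peaks, against 30.3%, 24.6% and 42.4% in the same order. All 30 far peaks of its bin 4 were found again, and in replicate 2 all 72, 34 and 9 far peaks of bins 2, 3 and 4 were, where the other distal classes reached 97.6% to 99.7%. In bin 1 of replicate 2 the share was 64.2% of 179, against 60.4% and 60.8% in the distal classes and 67.7% at promoters.

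**Figure D2:**
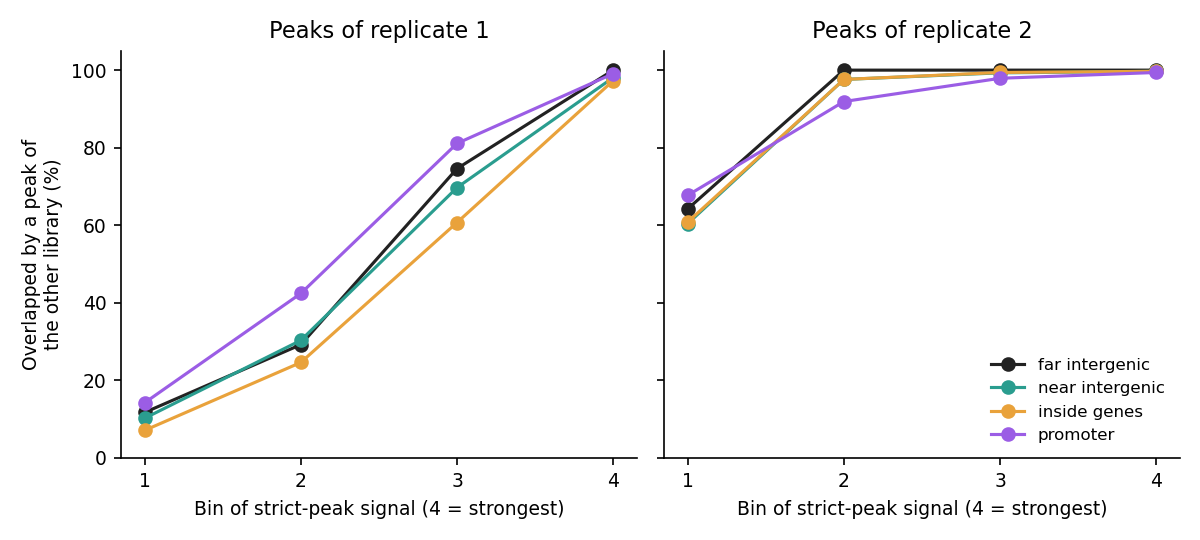
Percent of strict peaks overlapped by a strict peak of the other library, by signal bin within each library (4 is the strongest), for far intergenic, nearer intergenic, genic and promoter peaks. The far peaks lie near the other distal classes in each bin, at 11.7% and 64.2% in bin 1 and 100% in bin 4.

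Joined over the libraries, the far peaks make 851 sites, of which 230 (27.0%) were called in both, 560 in replicate 1 alone and 61 in replicate 2 alone. Of the 560, 185 lie in the larger peak list of replicate 2, and 8 of the 61 lie in that of replicate 1. Replicate 1 had the higher signal at 172 of the 230 shared sites (74.8%), and the median of its signal over that of replicate 2 was 1.31. Over the 25463 other peaks of replicate 2 with a partner, 88.9% were higher in replicate 1 and the median ratio was 1.50. The ratio was over 2 at 46 shared far sites in favour of replicate 1 and at 1 in favour of replicate 2. At the 20 shared sites where some 32-base word recurs in the genome, inside the site or elsewhere, the median ratio was 1.05. At the 210 with single-copy words it was 1.32. Whether the libraries share a signal scale is not known, so these ratios describe the deposited values only.

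**Figure D3:**
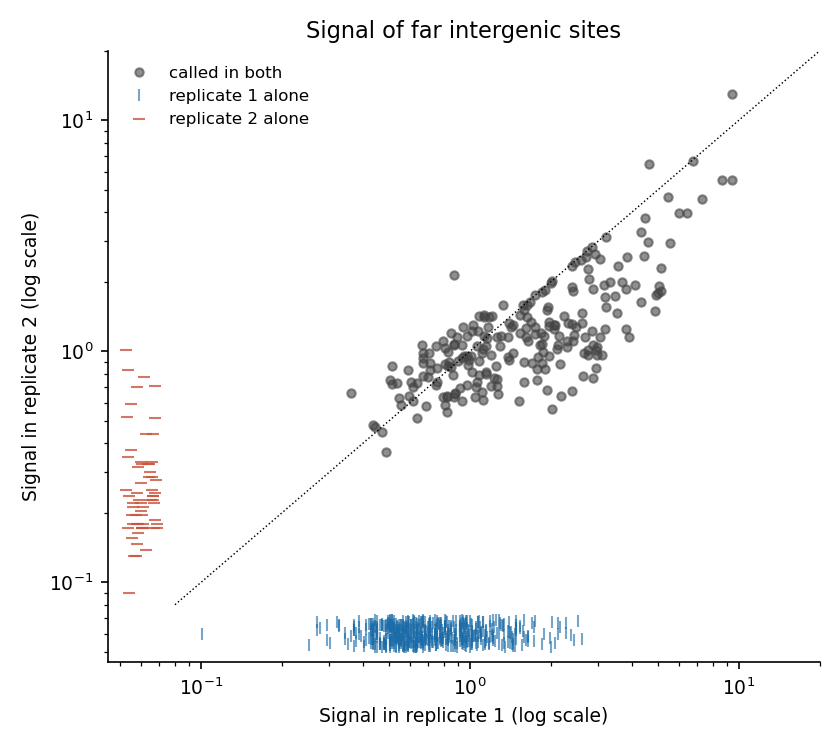
Signal of the far intergenic sites in replicate 1 and replicate 2 (log scales), with the dotted line at equal signal and sites called in 1 library alone drawn as ticks along the margin at an arbitrary position on the missing axis. The 230 shared sites follow the line with 172 of them on the side of replicate 1, and the ticks of replicate 2 alone gather at low signal.

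The strongest far sites of replicate 1 without a strict peak in replicate 2 were at signals of 2.28 to 2.60. They lie 57109 bases from Lrrc8d, a subunit of a volume-regulated anion channel, 54715 bases from Bhlhe40, a transcription factor of activated lymphocytes, 51626 bases from Myl10, between Veph1 and Shox2, and between Fam49a and Mycn. All 5 are in the larger list of replicate 2, with lowest FDR values there of 5.87e-04 to 0.0341. The strongest of replicate 2 alone, at 0.699 to 1.01, include 3 that lie wholly in repeat sequence, on chromosomes X, 1 and 2. Of these 5, 3 are in the larger list of replicate 1.

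The sites called in replicate 2 alone were concentrated in a few places. Sites with a neighbour within 20 kb were joined into strings, and 48 of the 61 (78.7%) fall in 4 strings. The string with most sites has 19 in 11480 bases between Prox1 and Rps6kc1 (chr1:190658921-190670400), all in replicate 2 alone, with signals of 0.163 to 0.350 and 27.1% of its span inside peaks. A string of 11 lies between Actrt2 and Ttc34 (chr4:154731610-154743109), with 0.155 to 0.333, and a string of 7 between Coro2b and Itga11 (chr9:62599082-62610660), with 0.130 to 0.236. The last, between Pmepa1 and 1700021F07Rik (chr2:173452290-173470060), mixes 11 such sites with 2 shared sites and 2 of replicate 1 alone.

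These 48 sites had a median signal of 0.220, against 1.08 in replicate 2 for the shared far sites. None of them touches a run of FDR under 0.05, a footprint or a peak of the larger list in replicate 1, although 18 hold a footprint in replicate 2, and 1 has the CTCF motif. What made them was not tested. Replicate 2 has 53 far peaks inside the 4 strings. Without the strings it has 241 far peaks, of which 94.6% were found again, 95.4% held a footprint and 38.2% held the CTCF motif, with a median signal of 1.05.

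Elsewhere far sites were mostly alone. No other site lay within 20 kb of 440 of the 851 sites (51.7%), and 23 strings held 4 or more. The 851 sites lie in 432 intervals between neighbouring coding genes, of which 175 hold a shared site and 15 hold 3 or more. The median distance was 69.9 kb to any start and 112 kb to a coding start, with 34 sites over 500 kb from a coding start. The nearest start belonged to a coding gene at 276 sites, to a lincRNA at 229 and to a processed pseudogene at 182.

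The interval from Syf2, a splicing factor gene, to Runx3 had the most shared sites, with 11 sites of which 7 were called in both libraries. Its far ground is 89.4 kb, which makes 123 sites per Mb against 2.05 over all far ground. Per Mb, some intervals with less far ground and fewer shared sites were denser, among them Kcng1 to Nfatc2, with 2 sites in 7.83 kb (255 per Mb). On the side of Syf2 a close pair of sites had signals of 5.06 and 1.92 (chr4:134981981-134982200, with a TAL1-GATA composite motif) and of 3.46 and 1.74 in a sequence that is wholly repeat. On the side of Runx3 the leading sites were at 4.33 and 3.27 (chr4:135066841-135067020) and at 2.45 and 2.43 (chr4:135067221-135067400), both with the CTCF motif and 53632 and 53252 bases from the first start of Runx3. The 3 weaker shared sites had 1.63 and 1.41, 1.16 and 1.14, and 0.747 and 1.05. The 4 sites of replicate 1 alone stayed between 0.747 and 1.01.

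**Figure D4:**
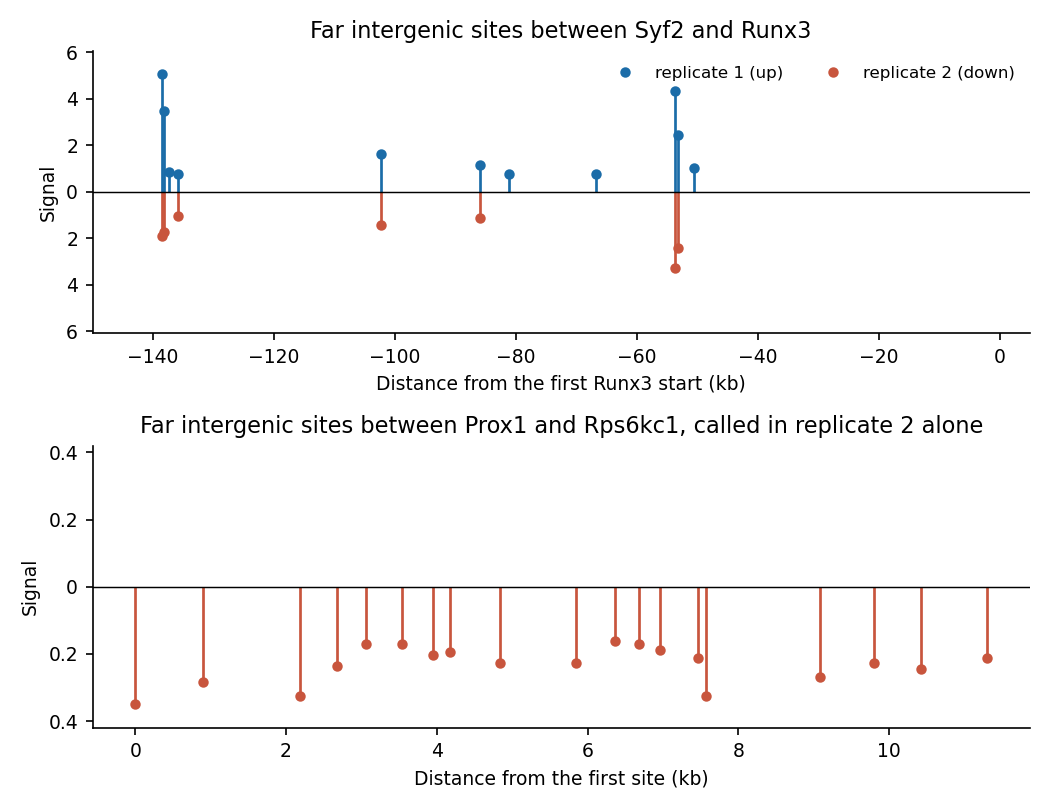
Signal of far sites in replicate 1 (up) and replicate 2 (down), in the upper panel between Syf2 and Runx3 by distance in kb from the first Runx3 start and in the lower panel along the string between Prox1 and Rps6kc1 in kb from its first site. The upper panel has 7 of 11 sites in both libraries with signals up to 5.06, and the lower has 19 sites in replicate 2 alone at 0.163 to 0.350.

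Further intervals with many shared sites bordered a range of genes. Between Pced1b and Rpap3 there were 7 sites, 5 of them shared, with highest signals of 3.20 and 1.55, and all 7 were nearest to Pced1b among coding genes. Between Ebf1, the factor that sets up B cell identity, and Clint1, a clathrin adaptor, there were 8 sites, 4 shared, with 3.11 and 2.28. The interval from Npvf to Nfe2l3, a bZIP transcription factor gene, held 14 sites, 3 shared, with 5.15 and 2.48. Among coding genes, 13 of them were nearest to Nfe2l3. For the site with 5.15 the nearest start of any type was that of the miRNA Mir148a, 91130 bases away. From Tle3, a corepressor, to Rplp1, a ribosomal protein gene, there were 13 sites, 3 shared, with 2.42 and 1.83. The interval of Olfm3 and S1pr1, the sphingosine-1-phosphate receptor that lets lymphocytes leave lymphoid organs, had 7 sites, 3 shared, with 3.55 and 2.56. That of Dazl and Plcl2 had 6, 3 shared, with 4.89 and 1.50.

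Further such genes were Sox5, an SRY-box factor with 4 sites, all shared, and highest signals of 4.45 and 2.58, and Plpp3, a lipid phosphatase with 9 sites, 3 shared, and 3.32 and 1.99. Cxcr4, the chemokine receptor that holds progenitors in their niche, had 5 sites, 3 shared, with 2.73 in both libraries. The intervals differ in length and in annotated noncoding starts, which set how much far ground they have.

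The gene lists gave few members with a far site. Each site was given to the coding gene with the nearest start, and 179 of 21911 coding genes (0.817%) received a shared site. Most coding genes have no far ground nearest to them. Of the 2834 that do, 6.32% received one. Of 16 blood stem and progenitor regulators (6 with far ground) 1 did, Runx1, the core factor of blood stem cell emergence, with 6 sites, 1 shared, and highest signals of 2.49 and 1.27. Of 17 red cell genes (3 with far ground) 1 did, Sox6, a repressor of embryonic globin, whose highest signals were 0.512 and 0.724. Of 18 B cell genes (4 with far ground) 1 did, Ebf1, with 3 sites and 2.74 and 2.28. Of 18 T and natural killer cell genes (9 with far ground) 2 did, Runx3 with 7 sites, 4 shared, and Ets1, a lymphoid ETS factor, with 1.69 and 1.34 at 399377 bases.

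Of 18 myeloid cell genes (4 with far ground) 1 had a shared site, Klf4, a factor of monocytes, with 2.98 and 0.968. Of 16 chromatin organisers and broad regulators (8 with far ground) 2 did, Zeb1 with 5 sites and 6.00 and 3.97, and Zfp521, a zinc finger factor of progenitors, with 0.898 and 1.15. The site of Zfp521 is 98.5% repeat and its 32-base words have a median of 750 copies, so this gene is lost when multi-copy sites are left out. None did of the 3 megakaryocyte, 6 stromal and vessel, 13 neuron and 2 hepatocyte genes with far ground, out of 12, 18, 16 and 12 listed. Per Mb of far ground nearest to the listed genes, there were 19.2 sites for B cell genes, 14.3 for blood stem regulators, 8.39 for broad regulators, 7.87 for red cell genes, 6.47 for T and natural killer cell genes and 3.94 for myeloid cell genes. Neuron genes had 0.175 over 5.73 Mb, stromal and vessel genes 0.499 over 2.00 Mb, megakaryocyte genes 0 over 0.348 Mb and hepatocyte genes 0 over 0.568 Mb. The value over all far ground was 2.05. The B cell value rests on 3 sites in 0.156 Mb, and these counts describe the lists only.

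Footprints were present in 89.7% of the far peaks of replicate 1 and 85.7% of those of replicate 2 (mean 87.7 ± 2.85, SD, n = 2). The shares of all other peaks were 89.5% and 88.5%. Without the 4 dense runs the far share in replicate 2 was 95.4%, but the other peaks were not trimmed in the same way. Per kb of peak there were 13.5 and 12.9 footprints in far peaks and 14.6 and 15.2 in other peaks. Footprints covered 17.2% and 19.9% of the bases in far peaks, and a far peak held up to 9 and 7 of them with a median of 2 in each library.

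The CTCF core, searched as CCNNNAGNNGGC on both strands in the 200 bases around the middle of each peak, was in 23.7% of far peaks (187) in replicate 1 and 32% (94) in replicate 2. It was in 29.5% and 36.6% of nearer intergenic peaks, 24.3% and 34.0% of peaks inside genes, 14.3% and 15.0% of promoter peaks and 1.09% of 20711 windows set every 20 kb in far ground outside peaks. Without the 4 dense runs the far share in replicate 2 was 38.2%, but the nearer intergenic peaks were not trimmed in the same way. These matches were mostly under footprints, which touched 84.7% of 196 matches in replicate 1 and 92.8% of 97 in replicate 2. Far peaks with the CTCF core were found again more often, in 48.7% and 97.9% of cases, than those without it, in 23.1% and 69.0%. Outside the 4 dense runs of replicate 2 the shares there were 98.9% of 92 with the core and 91.9% of 149 without it. Their median signals were 0.839 and 1.15 against 0.797 and 0.830, so in replicate 1 the levels were close.

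E-boxes and the PU.1 motif were more frequent in far peaks than in the evenly spaced windows, while the GATA motif was less frequent. The E-box CAGGTG, bound by E proteins, was in 22.8% and 23.1% of far peaks and 9.56% of the evenly spaced windows, and the E-box CAGCTG was in 23.4% and 21.4% against 5.23%. Footprints touched 30.7% and 39.2% of the matches of the former and 23.6% and 23.3% of the latter. Nearer intergenic peaks held the former in 20.7% and 22.0% and the latter in 18.5% and 15%. The CTCF core can itself contain either E-box. In the site between Runx3 and Clic4, the E-box at positions 146 to 151 lies inside a CTCF match. How many E-box matches are part of CTCF matches was not counted. The PU.1 motif GAGGAAG, of the factor that directs myeloid and B cells, was in 15.9% and 13.9% against 4.92%, and in 13.7% and 9.71% of nearer intergenic peaks. Footprints touched 16.0% and 18.6% of its matches. The GATA motif AGATAA was in 11.6% and 7.82% of far peaks, below the 15.6% of the windows and above the 4.43% and 3.11% of promoter peaks. Nearer intergenic peaks held it in 11.2% and 7.85%, close to the far peaks. Footprints touched 23.1% and 28.0% of its matches in far peaks. The windows had 39.1% G and C and the far peaks 52.0% and 54.7%, and the part of base composition in these shares was not tested. The TAL1-GATA composite CTGNNNNNNNNAGATAA, which contains the GATA motif, was in 14 (1.77%) and 3 (1.02%) far peaks against 0.266% of windows. It was in 1.06% and 0.598% of nearer intergenic peaks and 1.54% and 1.11% of peaks inside genes. The RUNX motif TGTGGTT was in 6.46% and 3.74% against 3.94%, and AP-1, searched as TGANTCA, in 7.34% and 5.10% against 5.98%.

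Motifs of promoters were less frequent at far peaks than at promoter peaks. The GC box and the ETS motif were more frequent at far peaks than in the windows, but the NFY motif was not. The GC box GGGCGGGG, bound by SP and KLF factors, was in 2.91% and 4.76% of far peaks, 22.9% and 26.9% of promoter peaks and 0.266% of windows. The ETS motif CCGGAAG was in 2.53% and 2.72%, against 10.9% and 13.0% of promoter peaks and 0.386% of windows. The NFY motif CCAATCA was in 2.53% and 2.04%, against 6.44% and 6.92% of promoter peaks and 2.69% of windows. The YY1 motif AAGATGGC was in 1.14% and 2.04%, against 2.81% and 3.36% of promoter peaks and 1.86% of windows. The NRF1 motif GCGCATGCG was in 1 and 0 far peaks against 499 and 493 promoter peaks. Far peaks had 2.06 and 2.73 CpG per 100 bases, close to the 2.42 and 3.00 of nearer intergenic peaks, and promoter peaks had 7.64 and 8.70.

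**Figure D5:**
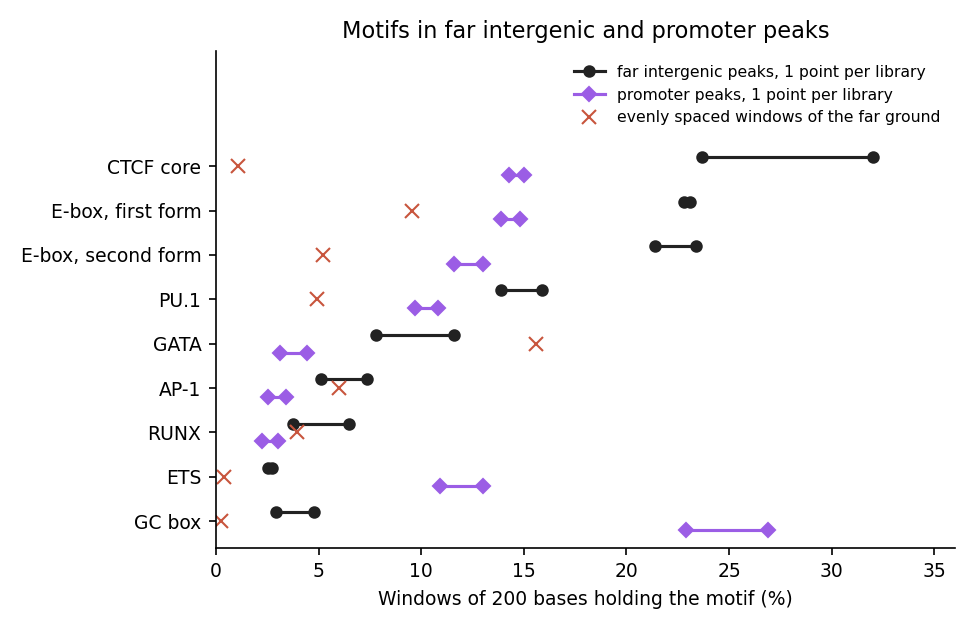
Percent of 200-base windows holding each motif in far intergenic peaks (circles) and promoter peaks (diamonds), with 1 point per library joined by a line, and in evenly spaced windows of far ground (crosses). The first and second forms of the E-box are CAGGTG and CAGCTG. The CTCF core stands at 23.7% and 32% in far peaks and 1.09% in the windows, and the GC box at 2.91% and 4.76% in far peaks and 22.9% and 26.9% in promoter peaks.

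Repeat sequence, the lower-case part of the reference, made up 10.6% and 13.2% of the bases of far peaks and 8.31% and 6.89% of those of other peaks. Over 50% of the peak was repeat in 43 far peaks (5.44%) of replicate 1 and 29 (9.86%) of replicate 2, against 3.59% and 2.92% of other peaks and 6.29% and 7.24% of nearer intergenic peaks. Some 32-base word of the peak recurred in the genome in 65 (8.23%) and 33 (11.2%) far peaks, and reads from such words can come from another copy. This held for 8.43% and 8.46% of other peaks and 11.6% and 14.5% of nearer intergenic peaks. Of the far peaks with such words, 47.7% and 72.7% were mostly repeat, against 1.52% and 1.92% where each word had a single copy.

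The most distant shared sites were weak. The 5 farthest from any start had signals of 0.504 to 1.15 in replicate 1 and 0.610 to 0.887 in replicate 2. The farthest, 257549 bases from the snoRNA Gm24212 between Sall1 and Tox3, and the next, between Impg1 and Htr1b, lie wholly in repeat sequence. The sites between St3gal1 and Zfat (0.613 and 0.610) and between Cdh26 and Cdh4 (1.15 and 0.797) hold the CTCF core, and the site between Plekhb2 and Hs6st1 (0.747 and 0.716) holds the AP-1 and OCT motifs.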

How the data were processed

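DNase-seq was deposited for 1 group of 2 libraries. Reads were aligned to mm10, per the labels. Neither the tools for alignment, peaks and footprints nor their thresholds are given there. For each library the authors deposited 2 peak lists with a signal per peak, which was used as given, footprint positions, and false discovery rates (FDR, in the manner of a p-value) for runs of bases under 0.05. Every footprint carried the same value, so only positions were used. Read depth is unknown, which leaves peak heights without a counting interval.

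Peaks were placed against GENCODE M21 on 21 chromosomes with Python 3.11.15, NumPy 2.4.6 and pandas 2.3.3. Repeat bases, 32-base word copies and motifs came from the GRCm38 sequence. The placement and the motif search were tested on simulated data. The far peaks, the 10 gene lists (161 genes) and the 22 motifs were chosen with earlier results of these data known. Named sites were the 10 strongest shared sites, the 5 strongest of each library alone, the 5 farthest shared sites and the longest strings; named genes were the 10 coding genes with the most shared sites and listed genes with 1. Other genes and intervals, Cxcr4, Tle3, Npvf and Dazl among them, were named after their values were seen. Of the 10 strongest shared sites, 1 is not reported here. No library was dropped. The pooling of 3 males against 1 and the library cannot be told apart.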

Additional observations from a re-analysis of the deposited data

How the results depend on the processing

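Values are means over the 2 libraries. With the larger peak lists the far peaks numbered 1447.5 (2.48% of peaks, 3.49 per Mb), had 0.398 times the signal of other peaks, held a footprint in 62.1%, the CTCF core in 16.9% and were mostly repeat in 22.5%. With the strongest 50% of strict peaks there were 97.5 (0.464%, 0.235 per Mb), with a signal ratio of 0.653, 99.7% with a footprint, 36.1% with the core and 2.81% mostly repeat. With as many of the strongest peaks of replicate 1 as replicate 2 has in all, there were 252 (0.874%), with a ratio of 0.608 and 92.6% with a footprint, and replicate 2 then had more far peaks than replicate 1 (294 against 210) and a lower share found again (47.3% against 66.2%).

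A limit of 25 kb gave 1629 peaks (4.06%, 2.34 per Mb, ratio 0.586), and 100 kb gave 92.0 (0.219%, ratio 0.475, 12.0% mostly repeat). With coding genes only there were 2610.5 (6.44%, 2.48 per Mb, ratio 0.557). The signal ratio was 0.536 without multi-copy peaks, 0.535 on autosomes and 0.557 without the 4 strings of replicate 2, an alternative added after seeing the data, where 92.6% held a footprint. Listed genes with a shared far site were 8, with 15 for the larger lists, 13 with both flanking genes and 7 without multi-copy sites, where Zfp521 was lost.

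With 1 replicate left out, the count was 294 to 790, the share 1.02% to 1.64% and the density 0.709 to 1.90 per Mb. The share found again was 29.1% to 78.2%, the signal ratio 0.527 to 0.533 and the footprint share 85.7% to 89.7%. The CTCF share was 23.7% to 32% and the repeat share 5.44% to 9.86%. Listed genes were 8 to 20, here counted by any far site of the library kept and not by shared sites. Of 111 values, those with 1 replicate left out included, 73 moved by less than the spread between the libraries, or for counts by less than 1.5 times. With 2 libraries, leaving 1 out always moves a share, density or ratio by less than that spread, so those cases tell nothing. The share found again had a spread of 34.7, which no setting exceeded. The 73 is therefore no measure of how stable the results are. No paired analysis was possible because there is 1 group. Read depth is not known, so what it limits in the weak far peaks was not tested.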

Other observations

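Several regulators of blood cells had far sites in replicate 1 alone. Myc, a driver of cell growth, had 3 between 408104 and 469779 bases from its start, with a highest signal of 0.923. Kit, the receptor of stem cell factor, had 1 at 114155 bases (0.772), and Bcl11a, a repressor of fetal globin in red cells, had 2 at 113064 and 115522 bases (highest 1.44). Gata3, a T cell factor, had 1 at 191815 bases (0.495), and Tcf4, an E protein, 1 at 258125 bases (0.755). No far site of these 5 genes is in the strict list of replicate 2, and all are under the median of 1.59 that shared far peaks had in replicate 1. With the larger lists Myc and Gata3 had a far site in both libraries, as did Mycn, Tox and Zeb2. The hepatocyte genes Apob and Foxa2, without a far site in the strict lists, then had a shared far site as well. In the strict lists, genes of other lists also had far sites in replicate 1 alone, Cdh12, a neuronal cadherin, with 0.504 and Nr2f2, a vessel factor, with 0.369.

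Rarer motifs gave small counts in far peaks. The CACCC box CCACACCC, of KLF factors, was in 33 (4.18%) and 12 (4.08%) far peaks against 0.782% of evenly spaced windows and 3.11% of promoter peaks of replicate 1. Nearer intergenic peaks held it in 3.74% and 3.47% and peaks inside genes in 4.77% and 4.21%. The EBF motif TCCCNNGGGA was in 12 and 3 far peaks, with footprints touching 9 and 2 of the matches. The OCT motif ATGCAAAT was in 17 (2.15%) and 4 far peaks against 2.18% of windows. The composite of NFE2 with small MAF proteins, TGCTGANTCA, was in 4 far peaks of replicate 1 and none of replicate 2.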
